A study of Mus musculus with 12 samples.

Results

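Expression in the newborn skull was compared between mice heterozygous for the Crouzon mutation of Fgfr2 (C342Y) and wild type mice of the C57BL/6 strain. The comparison used 6 of the 12 samples of the study, 3 wild type (replicates 1, 2 and 3) and 3 mutant (replicates 4, 5 and 6), chosen by the genotype and strain in their labels. In every sample the tissue was the frontal bone at postnatal day 3, taken along with the nasal bone and with the coronal and frontonasal sutures. The other 6 samples were wild type (replicates 13, 14 and 15) and C342Y heterozygous mice (replicates 16, 17 and 18) of the BALB/c strain, of the same age and tissue, and served to test whether an effect differed between strains and, in an alternative fit, to share the estimate of spread. The mutation is carried in the germ line of the model, so every cell of a mutant that expresses Fgfr2 can express the mutant receptor, beside the wild type receptor from the other allele. The labels do not say whether a sample was 1 animal or a pool, nor which sex it was. The p-values below therefore measure the spread between these samples, which may be partly technical. Values follow the order wild type 1, 2, 3 and then mutant 4, 5, 6.

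FGFR2 is a receptor tyrosine kinase of the cells that make skull bone. FGF ligands bind and pair its receptors, and the paired receptors signal through ERK and other kinases, which in turn raise feedback inhibitors such as the Sprouty and Spred proteins and dual specificity phosphatases. In Crouzon syndrome, mutations that leave an unpaired cysteine in an extracellular immunoglobulin-like domain of FGFR2 let receptors pair without ligand, and the sutures, the fibrous seams where skull bones grow, fuse early. Osteoblasts lay down the bone matrix at the suture edges, osteocytes are osteoblasts buried in that matrix, and osteoclasts are multinucleated cells of the monocyte lineage that resorb it. At this age the base of the nose is cartilage and the nasal cavity is lined by olfactory and respiratory epithelium, so a dissection of the frontal and nasal bones can carry all of these tissues, and the marrow spaces of the bone hold blood-forming cells.

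The gene table counts reads from both alleles together, so the mutant allele was not measured apart from the wild type allele.

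The library totals were 32890150, 32319568 and 36869392 counts in wild type and 45399520, 45075912 and 40633058 counts in mutant samples. A level is given in CPM, the unit of relative abundance that divides a gene's count by an adjusted library size, and a difference as log2 mutant over wild type with its standard error (SE) from edgeR's quasi-likelihood test. Osteoblast genes dominated every library: Col1a1, which encodes a chain of the bone collagen type I, stood at 58015, 106128 and 104186 CPM in wild type and at 113522, 126201 and 136123 CPM in mutant samples. Sex-linked genes were unevenly spread over the groups. Summed over Uty, Kdm5d, Eif2s3y and Ddx3y, the Y-linked level was 149.8, 157 and 162 CPM in wild type and 1.38, 1.00 and 185 CPM in mutant samples, and Xist, the RNA that silences an X chromosome in females, stood at 0.715, 0.973 and 0.916 against 583, 610.4 and 3.33 CPM. All wild type samples and mutant 6 thus carried Y-linked transcripts, while mutants 4 and 5 carried Xist.

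The samples also differed in how much nasal tissue they held. The summed level of 70 marker genes of nasal tissue (olfactory neurons, olfactory supporting cells, ciliated cells, airway secretory cells and epithelium) was 2293, 1184 and 1094 CPM in wild type and 677, 150.5 and 169 CPM in mutant samples. Most of what mutants 5 and 6 held was 1 gene, Adcy3, an adenylyl cyclase of olfactory cilia that other tissues also express. It rose from 81.7, 94.2 and 88.5 CPM to 120.4, 122 and 133 CPM (log2 0.51, SE 0.07, adjusted p = 0.0179, edgeR), a call lost without wild type 3 or mutant 6. Without Adcy3 the sum was 2211, 1089.9 and 1005 CPM in wild type and 556, 28.5 and 35.7 CPM in mutant samples. Omp, the marker of mature olfactory neurons, stood at 98.3, 49.3 and 58.8 CPM in wild type, at 36.6 CPM in mutant 4 and at 0.477 and 0.698 CPM in mutants 5 and 6. Mutant 4 therefore lay between the wild type samples and mutants 5 and 6, which had almost no Omp. The 10 olfactory supporting cell genes, enzymes of odorant metabolism among them, summed to 707, 382 and 416 CPM in wild type and to 237, 2.48 and 4.03 CPM in mutant samples. Neuron genes stepped down likewise, with sums of 329, 161 and 189 against 112, 12.7 and 12.2 CPM.

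Wild type 1 and wild type 2 each held tissue markers at levels of their own. The airway secretory list with Bpifb9b, and Krt15, are already counted in the nasal sum above. Bpifb9b, a secreted protein of nasal glands, was at 272 CPM in wild type 1 and at most 0.182 CPM in any other sample, and the airway secretory list summed to 731 CPM in wild type 1 against 97.5 and 145 CPM in wild type 2 and 3. Osteoblast genes were at their lowest in wild type 1, with a sum of 120816 CPM against 207986 and 213536 CPM. Krt15, a keratin of basal epithelial cells, was at 86.3 CPM in wild type 2 and at most 0.715 CPM elsewhere, and the skeletal muscle list summed to 137 CPM in wild type 2 against 23.3 to 33.9 CPM in the other 5 samples. A principal component analysis of log2 CPM put 81.2% of the variance on its leading axis, which separated mutants 5 and 6 from mutant 4 and the wild type samples, with scores of -77.4, -46.3 and -45.6 in wild type, -12.1 in mutant 4, and 94.8 and 86.6 in mutants 5 and 6. Genotype and this gradient point the same way, so they cannot be told apart in a test of 3 against 3. The marker values above are to be read beside all results below.

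**Figure D1:**
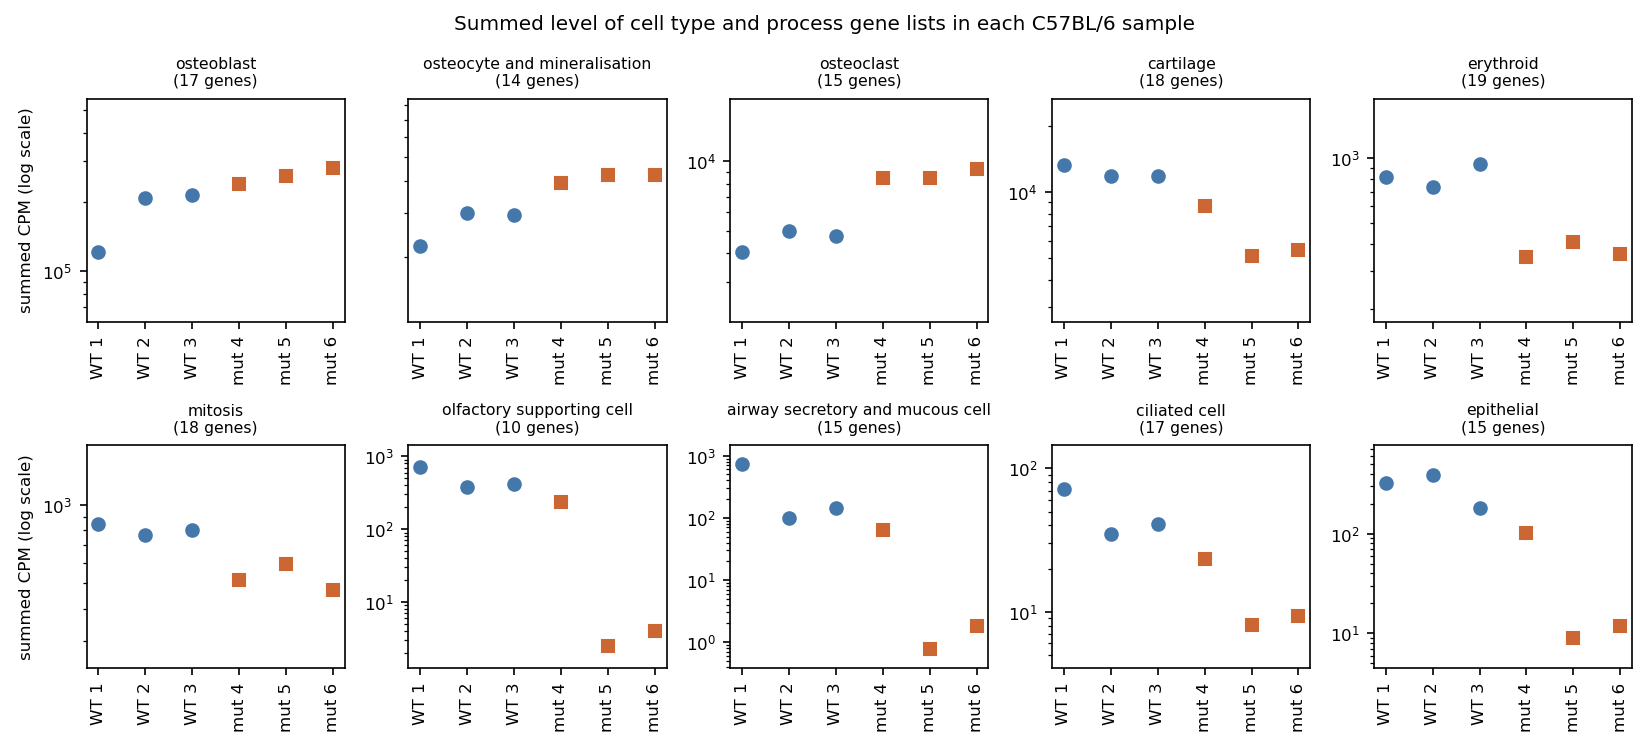
Summed CPM (log axis) of 10 gene lists in each C57BL/6 sample, wild type 1 to 3 as circles and mutant 4 to 6 as squares, 1 panel per list with the number of its genes in the title. In all 10 panels the sums divide the groups with no overlap. In the 4 nasal panels of the lower row the samples step down from wild type over mutant 4 to mutants 5 and 6. In the osteoclast, erythroid and mitosis panels mutant 4 lies close to mutants 5 and 6.

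The steps of this gradient reach well beyond the marker lists. Of the 15828 genes tested, 827 (5.22%) stood higher in every wild type sample than in mutant 4 and more than 2-fold higher in mutant 4 than in both mutants 5 and 6, and 1 gene showed the opposite pattern. Among the nasal markers 50 of the 62 tested (80.6%) had that pattern.

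A gene was called when its p-value, adjusted over all 15828 genes tested (Benjamini-Hochberg), was under 0.05. There were 1458 calls (9.21% of genes tested), 716 higher in the mutants (4.52%) and 742 lower (4.69%). The median log2 difference over all genes tested was -0.00 and the median size of a called difference was 0.63, so most called changes were under 2-fold: 33 genes rose and 317 fell by a log2 difference of at least 1. A further 49 genes rose and 1395 fell by at least that much without a call. Of those 1395 falls, 779 (55.8%) had the step pattern of the tissue gradient described above. For comparison, 6744 genes (42.6%) had group ranges that were fully apart, 3181 with the mutants above (20.1%) and 3563 with the mutants below (22.5%), and before adjustment 5234 genes (33.1%) lay under a p-value of 0.05. In a fit of all 12 samples, which borrows the spread of the BALB/c samples, 3867 genes (23.9%) passed.

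The number of calls depended on single libraries. It was 613 without wild type 1, 259 without wild type 2, 123 without wild type 3, 309 without mutant 5 and 111 without mutant 6, and it rose to 3241 without mutant 4. When wild type 1 and mutant 4, the samples that stood apart within their groups, were both left out, 3339 genes passed, and 1353 of the 1458 were among them in the same direction. Of the 1458 genes, 79 passed in all 6 fits that left out 1 sample, 52 higher and 27 lower in the mutants. Of 67 named genes and markers that passed, 44 calls held without wild type 1, 27 without wild type 2, 20 without wild type 3, 67 without mutant 4, 28 without mutant 5 and 19 without mutant 6, and 15 held in all 6 fits. The authors' deposited table, made with DESeq2, lists 2004 genes as higher and 2397 as lower at a q-value under 0.05, and 1350 of the calls made here are among them in the same direction (92.6% of the calls here and 30.7% of theirs).

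Fgfr2 itself was higher in the mutants. Its level (chromosome 7, 130162451 to 130266808) was 208, 254 and 285 CPM in wild type and 342, 364 and 374 CPM in mutant samples, with no overlap between the groups. The means were 249 CPM ± 38.5 (SD, n = 3) and 359.9 CPM ± 16.1 (SD, n = 3), a log2 difference of 0.53 (SE 0.12, adjusted p = 0.0443, edgeR). The call is a narrow one. Its adjusted p was 0.101 without wild type 2, 0.0577 without wild type 3, 0.112 without mutant 5 and 0.147 without mutant 6, with log2 differences of 0.43 to 0.64 over all 6 such fits. With scaling by total counts the log2 difference of Fgfr2 was smaller, 0.35 (adjusted p = 0.0416, edgeR).

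Of 14 FGF receptor and ligand genes tested, Fgfr2 among them, 2 rose and 2 fell, against 4.52% and 4.69% of all genes, with 10 differences negative and a list median of -0.47. Fgfr1, the receptor that shares osteoblast expression with Fgfr2, rose from 344, 450.2 and 438 CPM to 561, 574 and 613 CPM (log2 0.51, SE 0.12, adjusted p = 0.0461, edgeR), so that it and Fgfr2 differed by nearly the same amount. Fgfr3, a receptor of cartilage and of osteoblasts, was at 181, 207 and 194 CPM in wild type and at 209.6, 174 and 175 CPM in mutant samples, and these overlapping ranges gave a log2 difference of -0.06. On the deposited scale per coding length (RPKM), the mean wild type levels were 68.1 for Fgfr1, 38.7 for Fgfr2 and 36.8 for Fgfr3, with SDs of 5.60, 3.80 and 1.43, and Fgfr4 was far below them at 0.857. Of the ligands, Fgf9 fell from 5.62, 5.11 and 5.44 CPM to 2.98, 2.86 and 3.27 CPM (log2 -0.83, SE 0.15, adjusted p = 0.0265, edgeR). Fgf20 also passed the test but stood at 1.74, 0.547 and 0.970 CPM in wild type and at 0.138 CPM in mutant 4 and 0 in mutants 5 and 6. Fgf18, a ligand made at suture margins, did not pass at 2.04, 2.43 and 2.96 against 1.38, 1.86 and 1.18 CPM. Fgf10, a ligand of FGFR2, and Fgfrl1, a receptor without a kinase domain, just missed the threshold, Fgf10 with 4.91, 4.20 and 3.5 against 2.75, 2.20 and 1.72 CPM (adjusted p = 0.0577) and Fgfrl1 with 43.2, 40.8 and 41.4 against 35.4, 27.8 and 24.5 CPM (adjusted p = 0.0539). Fgf1, Fgf2, Fgf7, Fgf23 and the coreceptor Kl did not pass either, with log2 differences from -1.12 to 0.45, and Fgf22 and Klb were too low to be tested.

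Feedback inhibitors and other target genes of FGF and ERK signalling, taken as 1 list, did not move together. Of 15 such genes 3 rose and 1 fell, against 4.52% and 4.69% of all genes, and the list median was 0.15, or -0.05 when libraries were scaled by total counts. Etv5, an ETS transcription factor downstream of FGF, rose from 42.4, 42.0 and 46.4 CPM to 55.3, 59.7 and 62.1 CPM (log2 0.44, SE 0.07, adjusted p = 0.0196, edgeR). Dusp5, a phosphatase of nuclear ERK, rose from 21.1, 17.1 and 20.9 CPM to 33.0, 30.1 and 26.2 CPM, and Spry1, a Sprouty inhibitor, from 48.3, 59.9 and 55.4 CPM to 67.5, 75.5 and 68.8 CPM. In contrast Dusp6, the phosphatase of cytoplasmic ERK, was at 73.8, 81.3 and 73.8 CPM against 85.5, 83.9 and 84.3 CPM, a log2 difference of 0.15 that did not pass (adjusted p = 0.126). Spry2, Spry4, Spred1, Spred2 and Spred3 did not pass either, with log2 differences from -0.21 to 0.29, nor did Dusp4, Dusp7, Etv1, Etv4 and Il17rd, from -0.73 to 0.47. Ccnd1, the cyclin that drives cells into the cycle, fell from 125, 120.0 and 128 CPM to 76.6, 76.1 and 52.4 CPM (log2 -0.86, SE 0.14, adjusted p = 0.0238, edgeR), a call lost without any 1 of wild type 1, 2 or 3 or mutant 5. Scaling by total counts lowered the differences of all genes by a median of 0.19 and left 0 of the 3 rises past the threshold. Without any 1 of wild type 2, wild type 3, mutant 5 or mutant 6, 0 of the 15 feedback and target genes were called higher. In the same fits 0 of the 14 receptors and ligands were called in either direction.

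**Figure D2:**
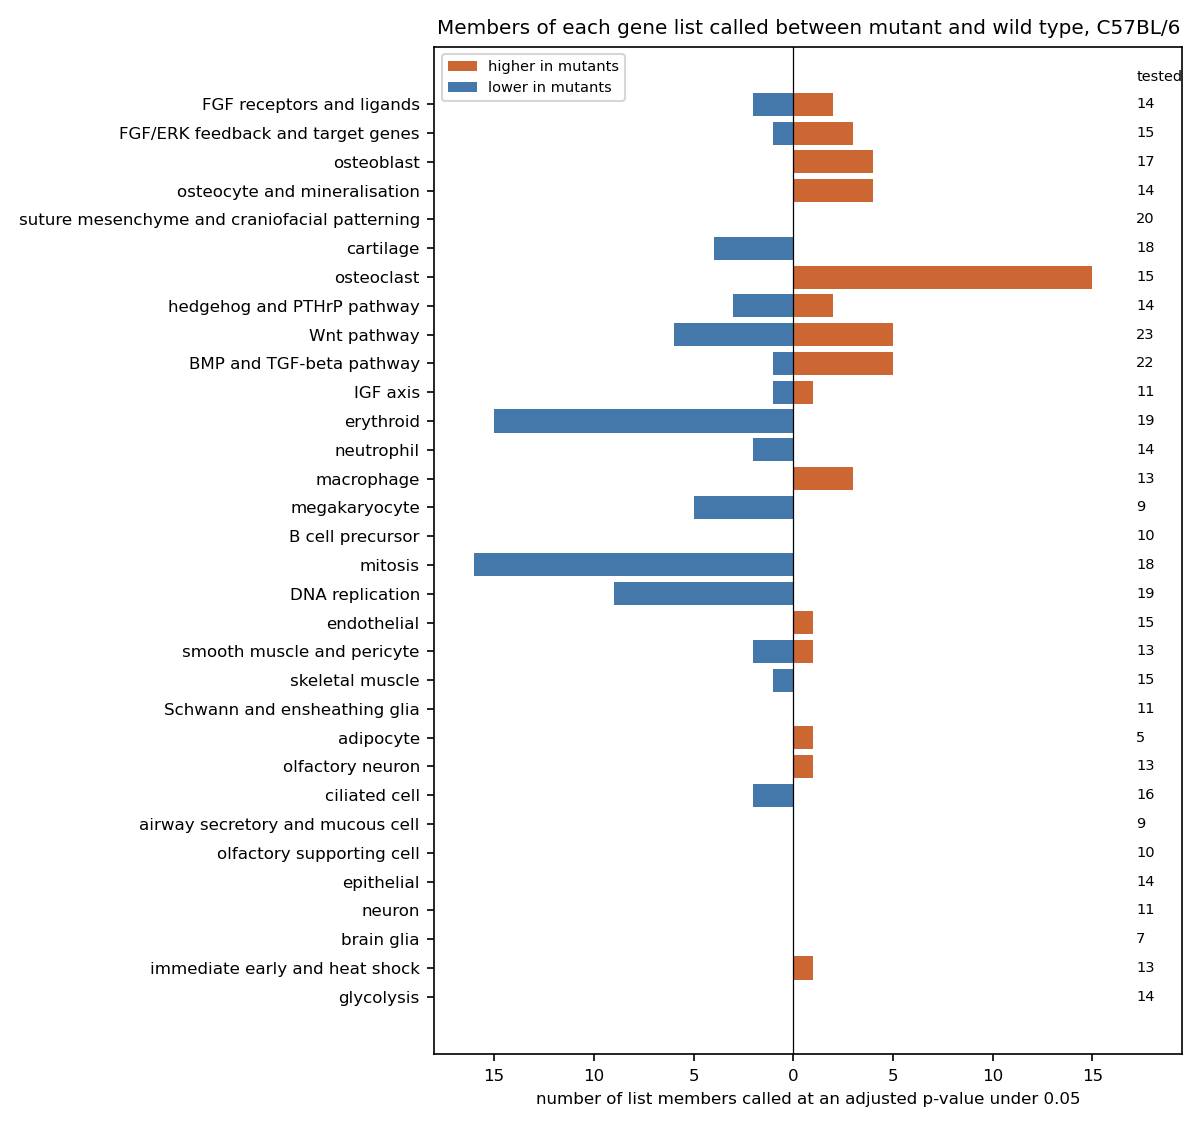
Number of members of each of 32 gene lists that were called higher (to the right) or lower (to the left) in the C57BL/6 mutants at an adjusted p-value under 0.05, with the number tested at the right edge. Osteoclast genes fill the higher side with 15 of 15, and erythroid and mitosis genes the lower side with 15 of 19 and 16 of 18.

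Osteoclast genes were higher in the mutants without exception. Of 15 members tested 15 rose, against 4.52% of all genes, with log2 differences from 0.33 to 1.24 and a median of 0.89. Their summed level was 4053, 5008 and 4769.8 CPM in wild type and 8484, 8421 and 9281 CPM in mutant samples, so the groups lay far apart and the mutants close together. In a bulk tissue a greater number of osteoclasts and more RNA of these genes per osteoclast cannot be told apart, here and for the lists that follow. The list was written with an earlier result for it known, so the count describes these samples.

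The members span the steps of osteoclast formation and work. Tnfrsf11a (chromosome 1, 105780723 to 105847981) encodes RANK, the receptor through which RANKL commits precursors, and rose from 19.4, 22.0 and 19.0 CPM to 33.3, 35.7 and 34.6 CPM (log2 0.78, SE 0.08, adjusted p = 0.00913, edgeR). Oscar, a costimulatory receptor of that step, rose from 20.3, 21.1 and 20.3 CPM to 35.3, 38.8 and 43.4 CPM, a 1.91-fold difference. Nfatc1, the transcription factor that RANK signalling activates, rose less, from 131, 149 and 168 CPM to 194, 199 and 208 CPM (log2 0.43). Dcstamp (chromosome 15, 39745932 to 39760934) is needed for precursors to fuse, and had the smallest p-value of the list. It stood at 17.02, 18.4 and 20.1 CPM in wild type and at 43.3, 40.1 and 42.2 CPM in mutant samples, a 2.26-fold difference (log2 1.18, SE 0.08, adjusted p = 0.00753, edgeR). Its partner in fusion, Ocstamp, showed a log2 difference of 0.89.

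The genes of resorption itself rose too, by differing amounts. Ctsk, the protease that digests bone collagen, stood at 1155, 1463 and 1493 CPM in wild type and at 2602, 2639 and 2824 CPM in mutant samples (log2 0.97, SE 0.12, adjusted p = 0.0123, edgeR). Acp5, the tartrate-resistant phosphatase used to stain osteoclasts, went from 831, 1056 and 906 CPM to 1726, 1707 and 1972 CPM. Mmp9, a gelatinase, went from 1325, 1634 and 1512 CPM to 2878, 2749 and 3078 CPM. All 3 genes were therefore close to 2-fold higher, with the lowest mutant above the highest wild type sample. The proton pump subunits Atp6v0d2 and Tcirg1, which acidify the resorption pit, rose by log2 differences of 0.89 and 0.79, and Clcn7 and Ostm1, the chloride transporter and its partner, by 0.50 and 0.59. Src, a kinase of many cell types that is needed for the ruffled border, showed the smallest difference of the list, from 70.1, 69.7 and 67.3 CPM to 87.4, 82.2 and 89.96 CPM.

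Of 13 markers of macrophages, cells of the same lineage, 3 rose, against 4.52% of all genes, 10 had a positive difference and the median was 0.16, or -0.05 with scaling by total counts. Their summed level was 444, 546 and 501 CPM in wild type and 734, 737 and 791 CPM in mutant samples, with no overlap. The count was 2 without wild type 1, wild type 2 or mutant 5, 1 without wild type 3 and 0 without mutant 6. Csf1r, the receptor for the growth factor that both cell types need, rose from 174, 232 and 203 CPM to 321, 342 and 368 CPM, and Cd68, a lysosomal protein abundant in both, from 61.8, 78.3 and 82.8 CPM to 129.7, 148 and 145 CPM. C1qa, C1qb, C1qc, Mrc1 and Emr1 (the F4/80 antigen), which mark macrophages more narrowly, had log2 differences from -0.10 to 0.20 and none passed. Tnfrsf11b, the decoy receptor osteoprotegerin that osteoblasts release against RANKL, stood at 16.97, 21.2 and 21.3 CPM against 27.7, 26.8 and 24.5 CPM and did not pass (adjusted p = 0.0595).

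**Figure D3:**
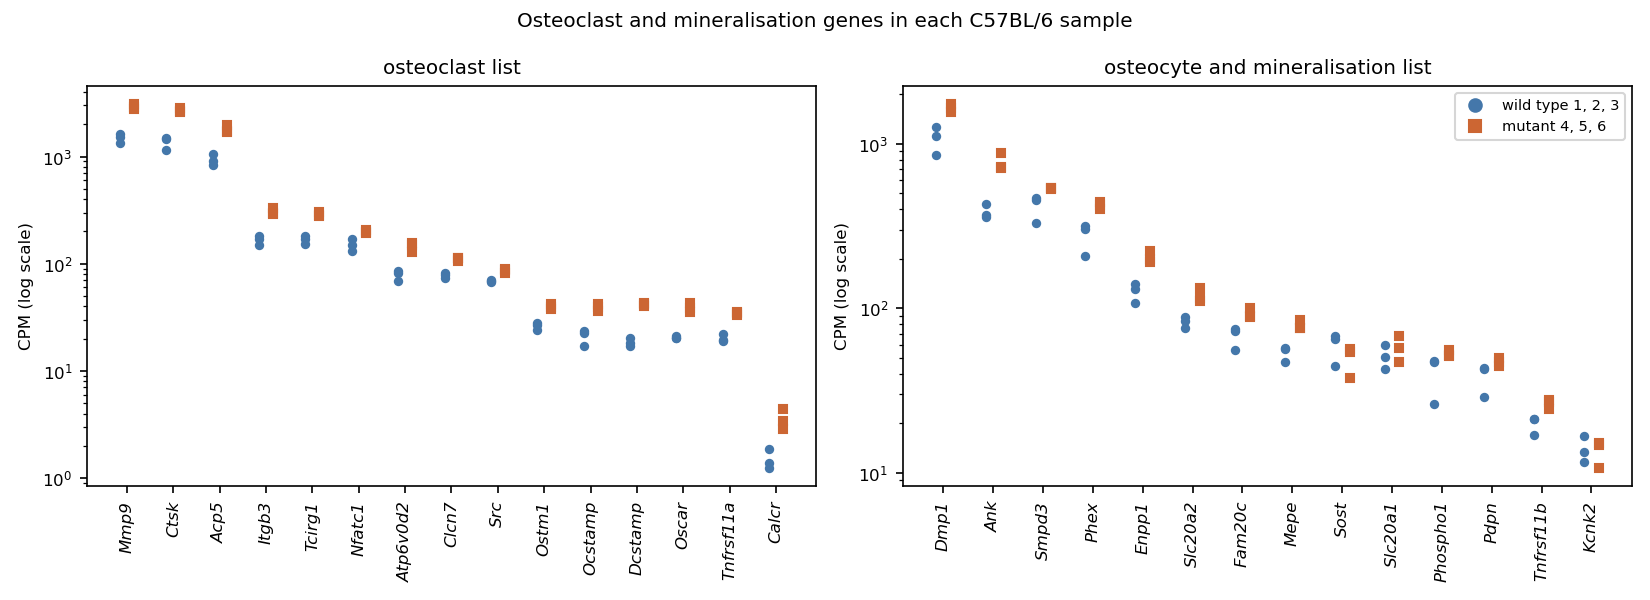
CPM (log axis) of the 15 osteoclast genes (left) and the 14 osteocyte and mineralisation genes (right) in each C57BL/6 sample, wild type as circles and mutant as squares. The groups are apart for every osteoclast gene, whereas in the mineralisation list Sost, Slc20a1 and Kcnk2 overlap.

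The osteoclast count of 15 was 8 without wild type 3 and 5 without mutant 6, and it was 12 with scaling by total counts and 15 without wild type 1 and mutant 4. Among samples with Y-linked transcripts only, where mutant 6 stands alone against the 3 wild type samples and is assumed to vary as they do, 12 members passed. With the Y-linked sum as a covariate over all 6 samples, 2 of the 15 passed, as did 1 of 19 erythroid and 4 of 18 mitosis genes. Set against the osteoblast sum of the same sample, the osteoclast sum was 3.35%, 2.41% and 2.23% in wild type and 3.54%, 3.25% and 3.31% in mutant samples, so on that scale wild type 1, the sample with the least osteoblast RNA, lay among the mutants.

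Osteoblast genes stood higher in the mutants, by less and with fewer calls. All 17 had a positive difference, 15 had no overlap between groups, against 20.1% of all genes with the mutants above, and 4 passed, against 4.52%, with a list median of 0.55. Runx2 (chromosome 17, 44604001 to 44814797), the transcription factor that commits cells to the osteoblast lineage, rose from 299, 308 and 322 CPM to 464, 485 and 506 CPM, a 1.57-fold difference (log2 0.65, SE 0.07, adjusted p = 0.0100, edgeR). It had the smallest p-value of the list, and it passed in all 6 fits that left out 1 sample. Spp1, which encodes the matrix protein osteopontin, rose from 5168, 5672 and 7532 CPM to 11819, 11285 and 12075 CPM (log2 0.94). Osteoclasts make osteopontin too. Pth1r, the parathyroid hormone receptor, also passed (log2 0.49).

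The collagen genes Col1a1 and Col1a2 did not pass, and wild type 1 lay far below the other wild type samples in both. Col1a2 was at 45523, 77532 and 81471 CPM in wild type and at 91754, 97348 and 107909.9 CPM in mutant samples (log2 0.54, SE 0.23, adjusted p = 0.161, edgeR). Without wild type 1 the list had 8 calls, without wild type 1 and mutant 4 it had 16, and without wild type 2, wild type 3, mutant 5 or mutant 6 it had 2, 2, 2 and 1.

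Of 14 genes of osteocytes and mineralisation, 4 rose and none fell, against 4.52% of all genes higher. The list median was 0.43, or 0.25 with scaling by total counts. Among those that rose were Ank and Enpp1, which supply pyrophosphate, the inhibitor of mineral growth that Alpl degrades. Ank (chromosome 15, 27466677 to 27594907), which exports ATP and so feeds extracellular pyrophosphate, rose from 358, 368 and 432 CPM to 714, 719.9 and 879.6 CPM (log2 1.00, SE 0.12, adjusted p = 0.0121, edgeR). Enpp1, the ectoenzyme that makes pyrophosphate from ATP, rose from 108, 130.4 and 141 CPM to 191, 224 and 199 CPM (log2 0.69). Mepe, an osteocyte matrix protein, rose from 47.3, 56.9 and 57.6 CPM to 85.0, 75.7 and 76.2 CPM, and the phosphate transporter Slc20a2 passed with a log2 difference of 0.53. Sost, the Wnt antagonist of mature osteocytes, was at 44.6, 67.8 and 65.4 CPM against 37.9, 56.8 and 54.6 CPM and overlapped. Ank passed in all 6 fits that left out 1 sample. The list had 1 call without wild type 2, wild type 3 or mutant 6, 2 without mutant 5, 6 without wild type 1 and 7 without mutant 4.

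Of 20 genes of suture mesenchyme and craniofacial patterning, edgeR called 0, with 6 at an unadjusted p-value under 0.05 where 33.1% of all genes had one, while DESeq2 called 2 higher and 2 lower and limma-voom 1 higher. The differences ran from -0.48 for Postn, the matrix protein periostin, to 0.54 for Zic1. Twist1, whose loss causes another syndrome of early suture fusion, stood at 46.5, 75.7 and 79.9 CPM in wild type and at 88.6, 89.2 and 98.0 CPM in mutant samples, and here again wild type 1 was the low sample (adjusted p = 0.155). Gli1, a marker of suture stem cells, overlapped at 76.3, 84.3 and 97.4 CPM against 62.9, 76.7 and 60.9 CPM.

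Signalling pathways of bone growth held calls in both directions, to be read against 4.52% of all genes higher and 4.69% lower. In the Wnt list 5 of 23 genes rose and 6 fell. Wif1, a secreted Wnt inhibitor made by osteoblasts, rose from 416, 427 and 486 CPM to 764, 827 and 968 CPM (log2 0.95, SE 0.12, adjusted p = 0.0123, edgeR), and the Wnt coreceptor Lrp5 from 198, 251 and 239 CPM to 335, 362 and 417 CPM. Frzb, a Wnt antagonist of cartilage, fell from 34.7, 31.9 and 26.6 CPM to 19.99, 18.04 and 15.9 CPM. Axin2 and Lef1, which canonical Wnt signalling raises, did not pass (log2 -0.34 and 0.38). Without wild type 2 the list had 1 gene higher and 1 lower, without wild type 3 it had 2 and 2, without mutant 5 it had 1 and 1, without mutant 6 it had 1 and 0, and without wild type 1 it had 2 and 3.

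In the BMP and TGF-beta list 5 of 22 genes rose and 1 fell, with a median of 0.14 that turned to -0.04 with scaling by total counts. Id1, the standard early target of BMP signalling, rose from 50.1, 53.9 and 55.7 CPM to 83.4, 89.97 and 94.0 CPM (log2 0.74, SE 0.07, adjusted p = 0.00908, edgeR), and its relative Id3 by 0.56. Bmp3, an atypical BMP of bone that opposes the others, rose from 37.0, 47.6 and 42.0 CPM to 68.8, 69.9 and 69.8 CPM, and Chrdl1, a secreted BMP antagonist, fell from 75.8, 67.4 and 69.0 CPM to 47.05, 45.1 and 36.2 CPM. The ligands Bmp2, Bmp4, Bmp5, Bmp6 and Bmp7 did not pass, with log2 differences from -0.26 to 0.30. Id1 was called in all 6 fits that left out 1 sample, while the 5 rises became 2 without wild type 2 or mutant 5 and 1 without wild type 3 or mutant 6, and Chrdl1 was lost without wild type 2, wild type 3 or mutant 5.

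The insulin-like growth factors themselves overlapped between groups or did not pass, while 2 of their binding proteins moved in opposite directions. Igfbp5, the main binding protein of bone, rose from 1588, 1919 and 1977 CPM to 2983, 3126 and 3491 CPM (log2 0.81), and Igfbp2 fell from 40.6, 25.8 and 31.6 CPM to 16.8, 9.93 and 15.1 CPM (log2 -1.23). Neither passed without wild type 2, wild type 3, mutant 5 or mutant 6, and Igfbp2 did not pass without wild type 1 either. For Igf1 the values were 109.5, 146 and 121 CPM against 157, 167 and 188 CPM (adjusted p = 0.0665).

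Cartilage genes were lower in the mutants, with the deepest losses in mutants 5 and 6. Of 18 tested 4 passed, all lower, against 4.69% of all genes, and the list median was -2.43. Sox9, the transcription factor that makes chondrocytes, fell from 76.4, 50.7 and 57.3 CPM to 39.5, 26.2 and 21.4 CPM (log2 -1.08, SE 0.25, adjusted p = 0.0455, edgeR), and its partner Sox5 from 19.3, 16.3 and 15.4 CPM to 9.95, 6.92 and 6.33 CPM. Col11a1, a minor collagen of cartilage that bone cells also make, fell from 2019.5, 2357 and 2265 CPM to 1594, 1448 and 1309 CPM. Acan, the main cartilage proteoglycan, stood at 811, 671 and 707 CPM in wild type and at 360.2, 128 and 109 CPM in mutant samples. Col2a1, the main cartilage collagen, was at 4851, 3290.2 and 3545 CPM in wild type and 1892 CPM in mutant 4, but at 82.2 and 112 CPM in mutants 5 and 6. Col2a1 therefore did not pass (adjusted p = 0.183), although every mutant lay below every wild type sample. Without mutant 4 the list had 16 calls and a median of -4.96, without wild type 1 it had 1 call, and it had 0 without wild type 2, wild type 3, mutant 5 or mutant 6. Over these samples the cartilage sum relative to the osteoblast sum was 11.04%, 5.73% and 5.53% against 3.61%, 1.98% and 1.94%, highest in wild type 1 and lowest in mutants 5 and 6 like the nasal marker sum, and the part of nasal cartilage in this result was not tested.

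Indian hedgehog fell with the cartilage genes. Ihh, the ligand of hypertrophic chondrocytes, went from 16.05, 10.3 and 11.7 CPM to 4.49, 3.15 and 2.79 CPM, a 3.64-fold difference (log2 -1.86, SE 0.25, adjusted p = 0.0143, edgeR). Mutant 4 again lay between the wild type samples and mutants 5 and 6, and the call was lost without wild type 3, mutant 5 or mutant 6. Of the 14 hedgehog and PTHrP pathway genes tested 3 fell and 2 rose, against 4.69% and 4.52% of all genes. The falls became 2 without wild type 1, 1 without wild type 2 or mutant 5 and 0 without wild type 3 or mutant 6, and the rises became 1 without wild type 1 or wild type 3 and 0 without wild type 2, mutant 5 or mutant 6. Hhip, a hedgehog antagonist that the pathway itself raises, fell from 31.7, 31.3 and 41.1 CPM to 15.7, 21.2 and 13.3 CPM, and the coreceptor Cdon fell by a log2 difference of 0.51. Gli3, a transcription factor of the pathway, rose from 40.2, 41.5 and 47.5 CPM to 55.4, 60.5 and 60.6 CPM, whereas the receptor Ptch1 and the transducer Smo overlapped.

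Red cell precursor genes fell, and mutant 4 fell as far as the other mutants. Of 19 erythroid genes tested 15 were lower and none higher, against 4.69% of all genes lower, with a median of -1.82. The summed level was 821, 733 and 941 CPM in wild type and 351, 409 and 361 CPM in mutant samples. Slc4a1 (chromosome 11, 102348820 to 102365281), the anion exchanger of the red cell membrane, fell from 146, 112 and 158 CPM to 23.98, 39.9 and 34.1 CPM, a 4.24-fold difference (log2 -2.09, SE 0.21, adjusted p = 0.00947, edgeR). Spnb1 (Sptb, the beta chain of red cell spectrin) had the smallest p-value of the list, falling from 52.8, 42.5 and 46.8 CPM to 14.7, 15.2 and 14.3 CPM. The blood group proteins Kel, Rhd, Rhag and Ermap fell by log2 differences of 1.82 to 2.11.

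The transcription factors of the lineage fell too, Klf1 from 9.40, 6.20 and 6.47 CPM to 1.10, 1.43 and 1.34 CPM and Gata1 by a log2 difference of 2.29. Tfrc, the transferrin receptor, which many dividing cells carry, overlapped at 124, 106 and 127 CPM against 108, 122 and 98.6 CPM. The adult beta globin row, listed as Beta-s, was at 233, 256 and 344 CPM against 117, 124 and 111 CPM, and the alpha globins Hba-a1 and Hba-a2 stood below 3 CPM. Globin genes exist as near-identical copies, so reads can be split or dropped between them and these levels are uncertain. Spnb1, Rhd, Ermap, Slc4a1 and the protease Ctse, the last of which is no member of the list and fell from 11.96, 9.92 and 10.1 CPM to 1.93, 2.77 and 2.31 CPM, passed in all 6 fits that left out 1 sample. The erythroid count was 9 without wild type 3 and 7 without mutant 6.

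The other marrow lists held fewer calls, to be read against 4.69% of all genes lower. Megakaryocyte genes fell in 5 of 9 tested, Ppbp among them from 6.34, 3.71 and 4.69 CPM to 0.825, 0.811 and 0.859 CPM and the platelet chemokine Pf4 from 7.67, 7.66 and 6.90 CPM to 4.86, 3.20 and 4.13 CPM, and the count was 1 without any of wild type 1, 2 or 3 or mutants 5 or 6. Of 14 neutrophil genes 2 fell, 1 without wild type 2 and 0 without wild type 1, wild type 3 or mutant 6, and the sums overlapped at 433, 252 and 306 CPM against 165, 275 and 128 CPM. Mpo, the peroxidase of early granulocytes, went from 35.9, 16 and 28.6 CPM to 3.67, 9.45 and 8.86 CPM (log2 -1.88), while genes of later granulocytes such as S100a9 and Ngp overlapped between the groups. Of the 10 B cell precursor genes tested 0 passed by edgeR, with 5 at an unadjusted p-value under 0.05 (33.1% of all genes), while DESeq2 called 3 lower and limma-voom 2, and their sums were 70.5, 53.7 and 49.7 CPM against 44.1, 33.2 and 39.9 CPM.

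Most genes of cell division were lower in the mutants. Of 18 mitosis genes 16 fell and none rose, against 4.69% of all genes lower, with log2 differences from -0.78 to -0.44 over the list and a median of -0.64. Their summed level was 849, 768 and 804 CPM in wild type and 516, 593 and 472 CPM in mutant samples. Plk1 (chromosome 7, 122159437 to 122169875), a kinase that builds the spindle, fell from 23.7, 23.9 and 22.3 CPM to 14.1, 13.7 and 12.9 CPM, a 1.72-fold difference (log2 -0.78, SE 0.07, adjusted p = 0.00908, edgeR). Mki67, the standard marker of cycling cells, fell from 174, 160.4 and 172 CPM to 96.5, 111 and 92.3 CPM, and Ccnb1, the cyclin of mitotic entry, from 35.5, 33.4 and 33.8 CPM to 20.96, 23.0 and 18.6 CPM. Both groups were narrow for these genes, and Plk1 and Mki67 passed in all 6 fits that left out 1 sample.

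DNA replication genes moved less. Of 19 tested 9 fell and none rose, against 4.69% of all genes lower, with a median of -0.43, and all 19 had every mutant below every wild type sample, against 22.5% of all genes. Mcm2, a subunit of the replicative helicase, fell from 68.1, 67.5 and 72.0 CPM to 48.8, 54.3 and 43.9 CPM (log2 -0.50), and Fen1, the nuclease that trims lagging strand fragments, from 23.6, 25.1 and 23.3 CPM to 15.3, 17.7 and 16.6 CPM. The mitosis count was 6 without wild type 1, 4 without wild type 2, 2 without wild type 3 and 5 without mutant 6, and the replication count was 1 or 0 without any 1 of these 4. Erythroid precursors divide, and the erythroid sum fell in the same samples, so a lower share of such precursors and slower division of bone cells cannot be told apart here.

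**Figure D4:**
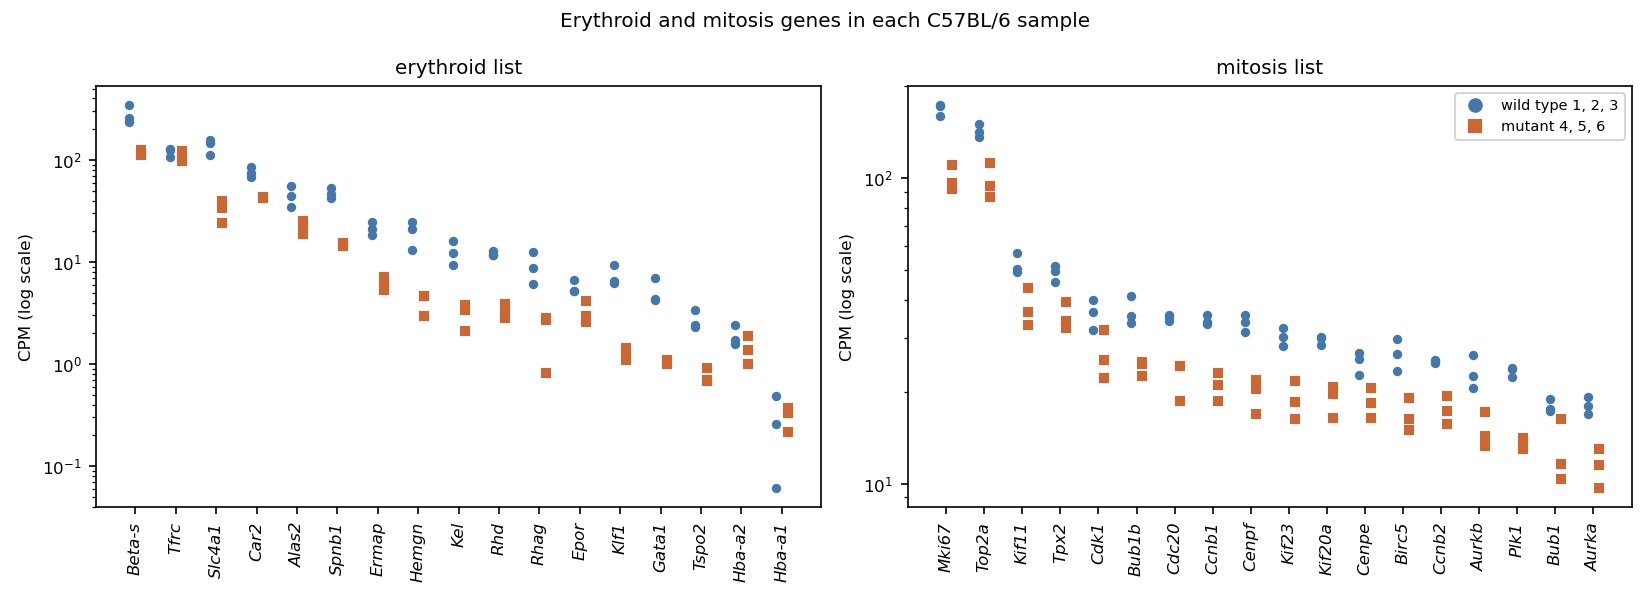
CPM (log axis) of 17 erythroid genes (left) and 18 mitosis genes (right) in each C57BL/6 sample, wild type as circles and mutant as squares. Most genes of both lists show the mutants below all wild type samples, with Tfrc, Hba-a1 and Hba-a2 and, in the mitosis list, Cdk1 as those whose ranges overlap.

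Endothelial, smooth muscle and adipocyte lists held few calls, with shares to be read against 4.52% of all genes higher and 4.69% lower. Of 15 endothelial genes 1 rose, the angiopoietin receptor Tek (log2 0.31), and of 13 smooth muscle and pericyte genes 1 rose and 2 fell. Acta2, smooth muscle actin, fell from 140.2, 151 and 137 CPM to 93.7, 96.4 and 96.7 CPM (log2 -0.58, SE 0.06, adjusted p = 0.00982, edgeR) and passed in all 6 fits that left out 1 sample, and Tagln, another contractile protein, from 69.4, 75.9 and 65.9 CPM to 51.9, 37.8 and 40.4 CPM. Pdgfrb, the pericyte receptor, rose by 0.32. Of 5 adipocyte genes tested 1 rose, the fatty acid carrier Fabp4, from 43.1, 47.4 and 47.3 CPM to 54.1, 58.5 and 59.6 CPM. Without any 1 of wild type 1, 2 or 3 or mutants 5 or 6, 0 endothelial and 0 adipocyte genes were called and the smooth muscle list had 0 higher and 1 lower. Of 15 skeletal muscle genes 1 fell, with a list median of -2.94, and the summed level of 137 CPM in wild type 2 stood far above that of every other sample. Over 16 settings of the fit that median ranged from -3.29 to -0.95. The gene that fell was Pax7, a factor of muscle stem cells, from 6.64, 1.82 and 2.96 CPM to 0.734, 0.239 and 0.429 CPM, and it too was lost without any 1 of those 5 samples. Of 14 glycolysis genes 0 passed by edgeR, with 3 at an unadjusted p-value under 0.05 (33.1% of all genes), and DESeq2 called 1 higher and 1 lower and limma-voom 1 lower. Of the 13 immediate early and heat shock genes, which respond to handling and digestion of tissue, 1 passed: Fosb rose from 1541, 1515 and 1784 CPM to 2406, 2810.4 and 2242 CPM. That call was lost without any 1 of the same 5 samples and with scaling by total counts.

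Among all called genes of at least 5 CPM, the largest rise was in Klhl33, a kelch-like protein, from 6.85, 3.41 and 4.26 CPM to 17.8, 14.2 and 27.5 CPM (log2 2.03, SE 0.34, adjusted p = 0.0233, edgeR), a call lost without wild type 2, wild type 3 or mutant 6. The other 9 of the 10 largest rises lay between log2 1.10 and 1.22. They included Dcstamp, the enamel protein gene Ambn, the sodium channel gene Scn3a, the matricellular gene Wisp2, the metallothionein Mt3, Msln, which encodes the surface protein mesothelin, E330013P06, and Pdk4, the kinase that turns cells from glucose to fat oxidation. Of the fits that left out 1 sample, Mt3 and E330013P06 failed without wild type 3 or mutant 6, Pdk4, Scn3a and Wisp2 also without wild type 2 or mutant 5, and Ambn and Msln passed without wild type 2 or mutant 4 alone. Egr3, an early growth response transcription factor, rose from 45.3, 55.1 and 58.5 CPM to 113, 124 and 107 CPM (log2 1.12, SE 0.11, adjusted p = 0.00908, edgeR) and passed in all 6 fits that left out 1 sample.

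Of the 10 largest called falls, 6 were members of the erythroid list, Hemgn, Rhag, Slc4a1 and Kel among them. Hemgn and Kel were lost without wild type 3 or mutant 6, and Rhag, Frem2 and Gpm6a without any sample but mutant 4. Ctse was described above. Frem2 and Gpm6a followed the tissue gradient in part. Frem2, an epithelial basement membrane protein, was at 16.9, 14.7 and 8.14 CPM against 4.26, 1.58 and 1.82 CPM, and Gpm6a, a neuronal membrane protein, at 32.6, 16.1 and 17.03 CPM against 8.62, 2.86 and 2.95 CPM. In both, mutant 4 lay between the wild type samples and the other mutants. Dpt, the last of the 10, a matrix protein of fibroblasts, was at 4.86, 20.2 and 12.7 CPM against 2.20, 1.62 and 3.70 CPM, with wild type 1 the lowest wild type sample and mutant 4 between the other mutants. Dpt was lost without wild type 2, wild type 3, mutant 5 or mutant 6.

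The genotype effects on C57BL/6 were set against those in BALB/c by the interaction of genotype and strain in a fit of all 12 samples. Over all genes 1626 of 16190 tested (10%) passed. In the osteoclast list 13 of 15 genes had an interaction that passed, all with the smaller rise in BALB/c, where the list median was 0.04 and the lowest adjusted p of any member was 0.262. In the erythroid list 16 of 19 passed in the opposite sense, and in BALB/c the median was 0.63 with 4 genes higher in the mutants. In the mitosis list 17 of 18 passed, with a BALB/c median of 0.28 and 1 gene higher. Runx2 had an interaction of -0.42 that did not pass (adjusted p = 0.0761), and nor did Fgfr2 with -0.45 (adjusted p = 0.0638). The run identifier in the sample descriptions differs between the strains and is shared within each, so run and strain cannot be told apart. A constant difference between them cancels in the interaction. The uneven Y-linked and nasal marker levels of the C57BL/6 groups do not cancel. The Y-linked list median was -1.38 in C57BL/6 and -0.05 in BALB/c. Medians of the 5 nasal lists ran from -2.82 to -2.23 in C57BL/6 and from -0.15 to 0.39 in BALB/c. The part of sex and tissue makeup in these interactions was not tested.

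**Figure D5:**
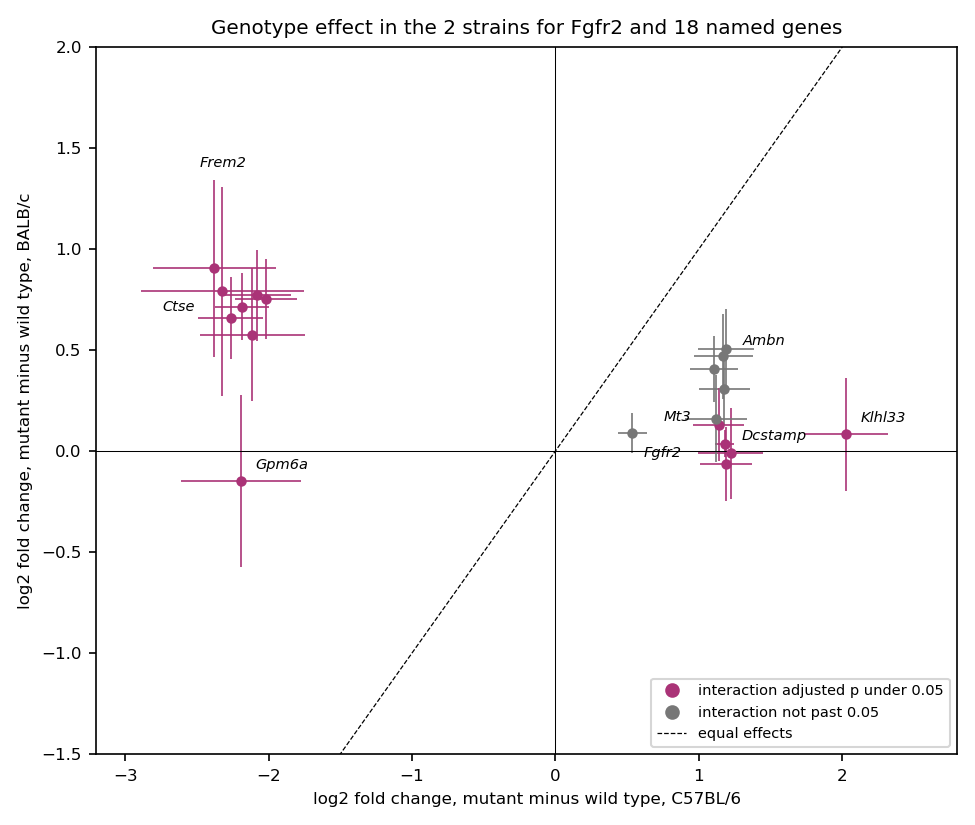
Log2 difference between mutant and wild type in C57BL/6 (x axis) against that in BALB/c (y axis) for Fgfr2 and 18 of the 20 genes with the largest called differences in C57BL/6, with bars of 1 SE and the dashed line marking equal effects. The 8 genes that fell in C57BL/6 lie at the left, 7 of them above 0 in BALB/c, and the rises lie to the right of the dashed line. The genes were chosen for their size in C57BL/6, which by itself places them away from that line.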

How the data were processed

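RNA-seq counts from 6 C57BL/6 samples, 3 wild type and 3 mutant, were compared, with 6 BALB/c samples for the interaction. Per the labels' protocols, tissue was digested with collagenase and trypsin and mRNA libraries were made. The submitters' processing notes name bcl2fastq, TopHat2 2.0.6, HTSeq, DESeq2 and the build mm10, and the strand setting is not given in the sources used here. The authors deposited raw gene counts for 23358 rows. All counts were even (0 odd values), as if each read pair counted 2, which was not tested. With halved counts 14917 genes were tested and 1628 were called. Of these, 1436 were also called with the counts as deposited, in the same direction. The authors' deposited RPKM values, per coding length, were used only to set receptors side by side. Their table of log2 fold changes and q-values, deposited by the authors, was used only for overlap. There were 26 identifiers on more than 1 row, and none of these was named. There were 0 rows without a gene name.

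The deposited counts were fitted without change in edgeR 4.0.16 (R 4.3.3) on the 6 samples alone: filterByExpr (minimum count 10, minimum total 15), TMM, quasi-likelihood F test, Benjamini-Hochberg adjustment over all genes and calls under 0.05. On data simulated for this comparison with 15631 genes, 66% to 90% of genes changed by a log2 of 1 or 2 were recovered. Of unchanged genes 0.0454% were called. The simulated samples held no tissue gradient and no sex imbalance, so these shares are no error rates of the real comparison. Samples were not paired. The samples, gene lists, tests and naming rule were chosen with earlier results of these data known. Named were Fgfr2 and the FGF genes, the 10 largest called changes each way at a mean of at least 5 CPM without overlap of ranges (no predicted, small RNA or sex-linked genes), up to 3 called members of each of 33 lists with the smallest p-values, and the sex-linked genes. Other members are named after their values were seen, and 4 genes that met the rule are not reported here. Of 482 list members 465 matched by symbol, 14 by a RefSeq synonym and 3 not at all. Of the 19 alternatives, halved counts and leaving out wild type 1 with mutant 4 were added after seeing the data, and DESeq2 1.42.0 and limma 3.58.1 were among them.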

Additional observations from a re-analysis of the deposited data

Results flagged for a closer look

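Of Fgfr2 and 18 of the 20 genes with the largest called differences, 13 of 19 had a genotype effect that differed between the strains (interaction, BALB/c minus C57BL/6, edgeR, adjusted over all genes of the 12-sample fit). For 5 genes that rose in the C57BL/6 mutants the effect in BALB/c was smaller: the interaction was -1.94 for Klhl33 (adjusted p = 0.0152), -1.23 for E330013P06 (0.0345), -1.25 for Scn3a (0.0142), -1.14 for Dcstamp (0.000109) and -1.01 for Mt3 (0.0328). For the 8 genes that fell, it was positive. It was 3.28 for Frem2 (0.00981), 3.11 for Dpt (0.0305) and 2.04 for Gpm6a (0.0491). For the protease gene Ctse it was 2.90 (0.000122). Among the red cell genes it was 2.92 for Hemgn (0.000406), 2.69 for Rhag (0.00896), 2.85 for Slc4a1 (0.000705) and 2.77 for Kel (0.000408). In BALB/c these 4 red cell genes had log2 differences from 0.58 to 0.77, the opposite sign to C57BL/6, but none passed there (adjusted p of 0.233 for Hemgn, 0.555 for Rhag, 0.211 for Slc4a1 and 0.164 for Kel). The genes were chosen by their size in C57BL/6, which enters the interaction, so their number is no estimate over all genes, where 10% passed. The uneven Y-linked and nasal marker levels of the C57BL/6 groups enter these interactions too, and their part was not tested. Groups of 3 samples were not screened for outlying samples by a test. Wild type 1 and mutant 4 were left out together only in an alternative fit chosen after seeing the data.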

How the results depend on the processing

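The 1458 calls became 3303 with DESeq2, 2768 with limma-voom, 3867 in the 12-sample fit and 3339 without wild type 1 and mutant 4, ranged from 111 to 3241 when 1 sample was left out, and fell to 63, 0 and 1 with a covariate for Y-linked, ciliated cell and erythroid genes, of whose variance genotype fixes 47.1%, 71.7% and 94.7% (1029 genes had an unadjusted p-value under 0.05 with the ciliated cell covariate, 654 with the erythroid one). Total counts gave 1220 calls, 21.9% of them higher against 49.1%, and samples with Y-linked transcripts alone gave 1352, 22.0% of them higher. Fgfr2 did not pass with the Y-linked (0.58, adjusted p = 0.139), ciliated cell (0.29, 0.924) or erythroid covariate (0.70, 0.933), nor in samples with Y-linked transcripts (0.59, 0.115), and lay between 0.43 and 0.64 when 1 sample was left out; the 4 fits in which its call was then lost gave 0.51 to 0.64. With the erythroid covariate 8 named genes changed sign without passing: Hemgn (0.60), Kel (0.70), Rhag (2.50), Slc4a1 (0.079), Rrm1 (0.019) and Mpo (2.64) turned positive, and Ambn (-0.37) and Msln (-0.14) negative. Hemgn, Kel, Rhag and Slc4a1 belong to the list whose mean made this covariate. A loss of their effect was therefore built into that fit. Fits with fewer samples have less power, and otherwise the cause was not tested. No paired analysis was possible because wild type and mutant samples share no replicate numbers. Without molecular identifiers, reads may be PCR copies of 1 molecule, and genes under about 1 CPM rest on few of them.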
